A study of Mus musculus with 24 samples.

Results

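The Iroquois family is a group of homeobox transcription factors, and the data described here are its rows in a table of mouse embryonic stem cells that were taken through neural differentiation. Members were chosen by gene symbol, Irx1 to Irx6. The table lists 17545 genes and holds 5 of the 6 symbols. Irx6 was not analysed here. All 5 measured members passed the filter on low values, which 16158 genes passed. The family was picked out because Irx3 was higher after differentiation in every genotype, so the changes of its members over days are given below as a description without a test, and the members are tested between genotypes. Other genes are also tested between days.

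The study took 24 libraries from 8 mouse embryonic stem cell lines at days 0, 2 and 7 of differentiation. The lines were 2 Cdc14ab KO clones, labelled as knockouts of both Cdc14a and Cdc14b, the genes of a pair of phosphatases that reverse phosphorylation by cyclin-dependent kinases, 2 Cdc14a KO clones, 2 Cdc14b KO clones and 2 wild-type clones, and the clones of each genotype carry the numbers 1 and 3. All lines came from blastocysts and were kept on feeder cells with LIF, then grown on gelatin to remove the feeders before RNA was taken. To differentiate them, LIF medium was replaced by N2B27 medium with EGF and FGF2, and at day 6 the cells were seeded on laminin and the growth factors were withdrawn. Each line is 1 clone, and no separate cultures of a line were labelled, so n = 2 below means 2 lines and a genotype difference is a difference between lines. The levels are counts of 3′ sequencing tags divided by a size factor for each library, called normalized counts here. They were not divided by transcript length, because tags come from the 3′ end of each transcript.

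Libraries held 6422883 to 10856721 reads in genes, with a median of 8015247, so 3 reads corresponded to 2.18 to 3.80 normalized counts. Cdc14a gave 4.22 to 10.1 normalized counts in Cdc14ab KO, 6.28 to 25.9 in Cdc14a KO, 4.37 to 15.4 in Cdc14b KO and 4.74 to 28.0 in wild-type libraries. Cdc14b gave 101 to 325 in Cdc14ab KO, 137 to 288 in Cdc14a KO, 96.7 to 263 in Cdc14b KO and 104 to 263 in wild-type libraries. Neither gene was called in any of the 12 genotype comparisons described below (smallest adjusted p by limma 0.80 for Cdc14a and 0.14 for Cdc14b). These 3′ tags would test the labels only if the 3′ end had been deleted, and which part was deleted is not given in the sources used here. Cdc14b-null lines (Cdc14ab KO and Cdc14b KO) also differed from the others in sex-chromosome transcripts: the summed count of 4 Y-linked genes was 14.0 to 57.1 in Cdc14ab KO and 4.44 to 65.0 in Cdc14b KO libraries, against 68.4 to 546 in Cdc14a KO and 69.1 to 465 in wild-type libraries. At day 0 the 2 lines of Cdc14a KO were themselves at 89.8 and 546, and those of wild type at 69.1 and 417. Xist was at 11.8 to 54.9 in Cdc14ab KO and 4.75 to 44.6 in Cdc14b KO libraries. It was at 0.898 to 8.69 in Cdc14a KO and 1.07 to 4.74 in wild-type libraries. Loss of Cdc14b and the difference of Cdc14b-null lines from the others in these transcripts cannot be told apart. The library of wild-type clone 3 at day 7 is described as undifferentiated in 1 label field and as day 7 in its title and treatment, and was kept at day 7. The 6 embryonic stem cell markers summed to 19057 to 46108 at day 0, 5789 to 17559 at day 2 and 6696 to 12465 at day 7, and none of the 6 was at 0 at any day in any library. Pou5f1, the largest part, had a median of 18098.5 at day 0 and 7218 at day 7. The medians of Zfp42, Esrrb, Klf4 and Tdgf1 were also lower at day 7 than at day 0. That of Nanog was 271 at both days. In bulk samples, fewer cells of a type and less RNA per cell cannot be told apart.

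Iroquois proteins carry a homeodomain of the TALE class, which has 3 extra residues between its first helices, and they act mostly as repressors and partly as activators. Mouse genes of the family lie in 2 clusters of 3, Irx1, Irx2 and Irx4 in one and Irx3, Irx5 and Irx6 in the other, and neighbours within a cluster often share expression domains. In the neural tube Irx3 marks progenitors of intermediate position and meets Olig2 at a mutually repressive border, and at the front of the neural plate the family marks territory behind the forebrain that expresses Six3. Irx4 is best known in the ventricles of the heart, Irx5 in the retina and in cardiac repolarization, and Irx1 and Irx2 in lung, limb and neural patterning.

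A stretch of the homeobox is shown because it is what makes these genes 1 family, and because it shows how far the members can be told apart by sequence. The stretch covers 10 codons of the recognition helix region in the coding exon, read on the coding strand from the mouse genome build GRCm38, and capitals mark bases that differ from Irx3.
Irx3: tggttcgccaacgcgcgccggcgcctcaag
Irx5: tggttTgccaacgcgcgccggcgcctcaag
Irx6: tggttcgccaacgcgcgccggcgcctcaag
Irx1: tggttcgccaaTgcgcgccggcgcctcaag
Irx2: tggttcgccaacgcgcgccgAcgTctcaag
Irx4: tggttTgccaacgcAcgTcggcgcctcaag
Irx3 and Irx6 had the same 30 bases, Irx1 and Irx5 each differed from Irx3 at 1 base, Irx2 at 2 and Irx4 at 3. All of these differences were synonymous, so the 6 genes encode the same residues there. Over a window of 63 codons around this stretch, Irx2 and Irx5 encoded the same residue at 63 of 63 positions and Irx1 and Irx3 at 62, which are pairs across the clusters and not within them. The least alike pairs were Irx2 with Irx6 and Irx5 with Irx6, at 54 positions each. The stretch lies at chr8:91800508-91800537 on the minus strand in Irx3, chr8:92359774-92359803 on the plus strand in Irx5, chr8:92677383-92677412 on the plus strand in Irx6, chr13:71960004-71960033 on the minus strand in Irx1, chr13:72630811-72630840 on the plus strand in Irx2 and chr13:73267670-73267699 on the plus strand in Irx4. The tags counted here come from the 3′ ends of transcripts and not from the homeobox.

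Irx3 (chr8:91798525-91802067, minus strand) was the most abundant member in every library and the only one whose libraries at the 3 days were fully separated. In Cdc14ab KO it had 36.7 normalized counts in clone 1 and 25.3 in clone 3 at day 0, 302 and 437 at day 2, and 641 and 4637 at day 7. In Cdc14a KO it had 49.9 and 27.8 at day 0, 315 and 291 at day 2, and 594 and 664 at day 7. In Cdc14b KO it had 52.3 and 35.6 at day 0, 249 and 430 at day 2, and 584 and 1054 at day 7. In wild type it had 75.8 and 63.1 at day 0, 396 and 536 at day 2, and 724 and 954 at day 7. Every day 7 library was above every day 2 library, and every day 2 library was above every day 0 library, whatever the genotype. The median over the 8 lines was 43.3 at day 0, 355 at day 2 and 694 at day 7.

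The share of genes with 3 days separated in this way and in this direction was 0.0557%, or 9 genes: Irx3, Cdkn1c, Exoc3l4, Fabp5, Heg1, Limch1, Mir351, Tgm2 and Thnsl2. This order is what Irx3 was chosen for, so nothing is read from it. Most of the step came by day 2 on the log2 scale. The difference of day 2 from day 0 was 3.53 in Cdc14ab KO, 2.99 in Cdc14a KO, 2.90 in Cdc14b KO and 2.72 in wild type, and that of day 7 from day 2 was 2.24, 1.05, 1.26 and 0.85 in the same order of genotypes. As a ratio of mean normalized counts, day 7 stood 85.1-fold above day 0 in Cdc14ab KO, 16.2-fold in Cdc14a KO, 18.7-fold in Cdc14b KO and 12.1-fold in wild type. The Cdc14ab KO ratio rested on clone 3, where it was 183-fold, against 17.5-fold in clone 1.

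In order of mean level, the groups of Irx3 ran from day 7 Cdc14ab KO, wild type, Cdc14b KO and Cdc14a KO, through day 2 wild type, Cdc14ab KO, Cdc14b KO and Cdc14a KO, to day 0 wild type, Cdc14b KO, Cdc14a KO and Cdc14ab KO. Among neighbours in that order, 3 pairs had no overlap between their lines: Cdc14a KO at day 7 over wild type at day 2, Cdc14a KO at day 2 over wild type at day 0, and wild type over Cdc14b KO at day 0. All other neighbours overlapped.

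**Figure D1:**
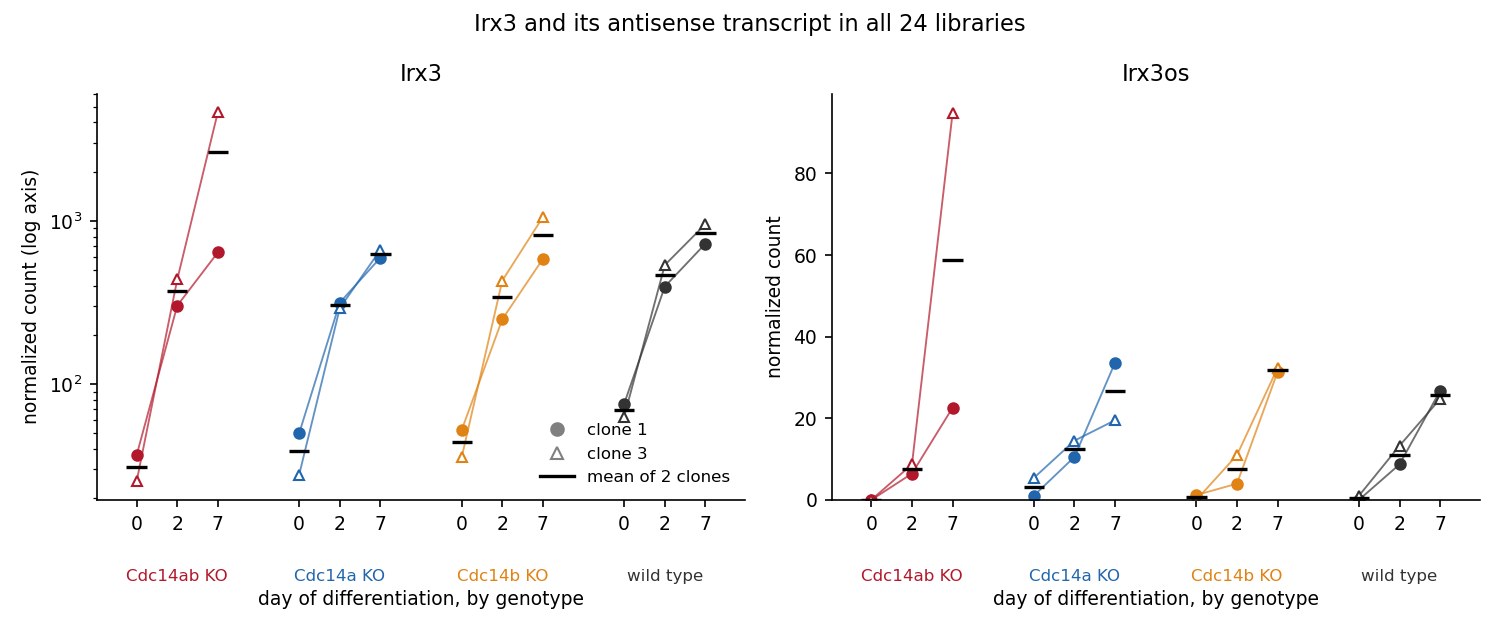
Irx3 (left, normalized counts on a log axis) and its antisense RNA Irx3os (right, normalized counts) in each of the 24 libraries by genotype and day, with circles for clone 1, triangles for clone 3, lines joining the days of a clone and bars at the mean of the 2 clones. The days of Irx3 do not overlap in any genotype, and the library of Cdc14ab KO clone 3 at day 7 lies at 4637, against 584 to 1054 in the other 7 day 7 libraries.

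The genotypes were compared with limma on log2(normalized count + 1), with 1 spread estimated from all 12 groups, and with Benjamini-Hochberg adjustment over all 16158 genes. None of the 5 members was called at an adjusted p under 0.05 in any of the 12 comparisons, 9 of a knockout with wild type and 3 of the 4 Cdc14b-null lines with the 4 Cdc14b-intact lines. Over the 60 member tests, 3 had an unadjusted p under 0.05, 2 for Irx5 and 1 for Irx4. The background was low as well. In Cdc14ab KO against wild type at day 7, 1.53% of all genes were called, in Cdc14b-null against Cdc14b-intact lines 3.75% at day 7 and 0.0124% at day 0, and in each of the other 9 comparisons 0%, with 70 to 2564 genes at an unadjusted p under 0.05 and up to 447 called by DESeq2. Leaving out 1 library raised the number of genes called at day 0 to as many as 2226 in Cdc14ab KO against wild type and 938 in Cdc14b-null against Cdc14b-intact lines. With all libraries, counts of 0 among 5 members are near what all genes gave.

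At day 0, Irx3 averaged 31.0 ± 8.05 normalized counts in Cdc14ab KO, 38.9 ± 15.6 in Cdc14a KO and 43.9 ± 11.8 in Cdc14b KO, against 69.4 ± 8.95 in wild type (SD, n = 2 lines each). All 6 knockout lines, at 25.3 to 52.3, lay below both wild-type lines, at 63.1 and 75.8, which 3.42% of all genes did at day 0. The log2 differences from wild type were −1.15 in Cdc14ab KO (95% interval −2.42 to 0.11, adjusted p = 0.36), −0.87 in Cdc14a KO and −0.67 in Cdc14b KO (adjusted p = 1 for both), by limma. At day 2 the averages were 370 ± 95.2 in Cdc14ab KO, 303 ± 16.8 in Cdc14a KO and 340 ± 128 in Cdc14b KO, against 466 ± 99.0 in wild type (SD, n = 2 lines each). Their log2 differences were −0.34, −0.60 and −0.49, each with an SE of 0.60.

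At day 7, Irx3 averaged 2639 ± 2826 in Cdc14ab KO, 629 ± 49.4 in Cdc14a KO and 819 ± 332 in Cdc14b KO, against 839 ± 162 in wild type (SD, n = 2 lines each). The Cdc14b KO difference was −0.08 with a 95% interval of −1.35 to 1.18, so these lines left room for a change of either sign. The Cdc14ab KO difference was 1.05 (SE 0.60, 95% interval −0.22 to 2.32, adjusted p = 0.51), and its sign depended on 1 library. It was −0.38 without Cdc14ab KO clone 3, and 2.48 with an adjusted p of 0.011 by limma without Cdc14ab KO clone 1, where the remaining line is assumed to vary like the other groups. The comparison of Cdc14b-null with Cdc14b-intact lines at day 7 gave 0.69 (SE 0.43, adjusted p = 0.41), and −0.03 and 1.40 (adjusted p = 0.020) without the same libraries.

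**Figure D2:**
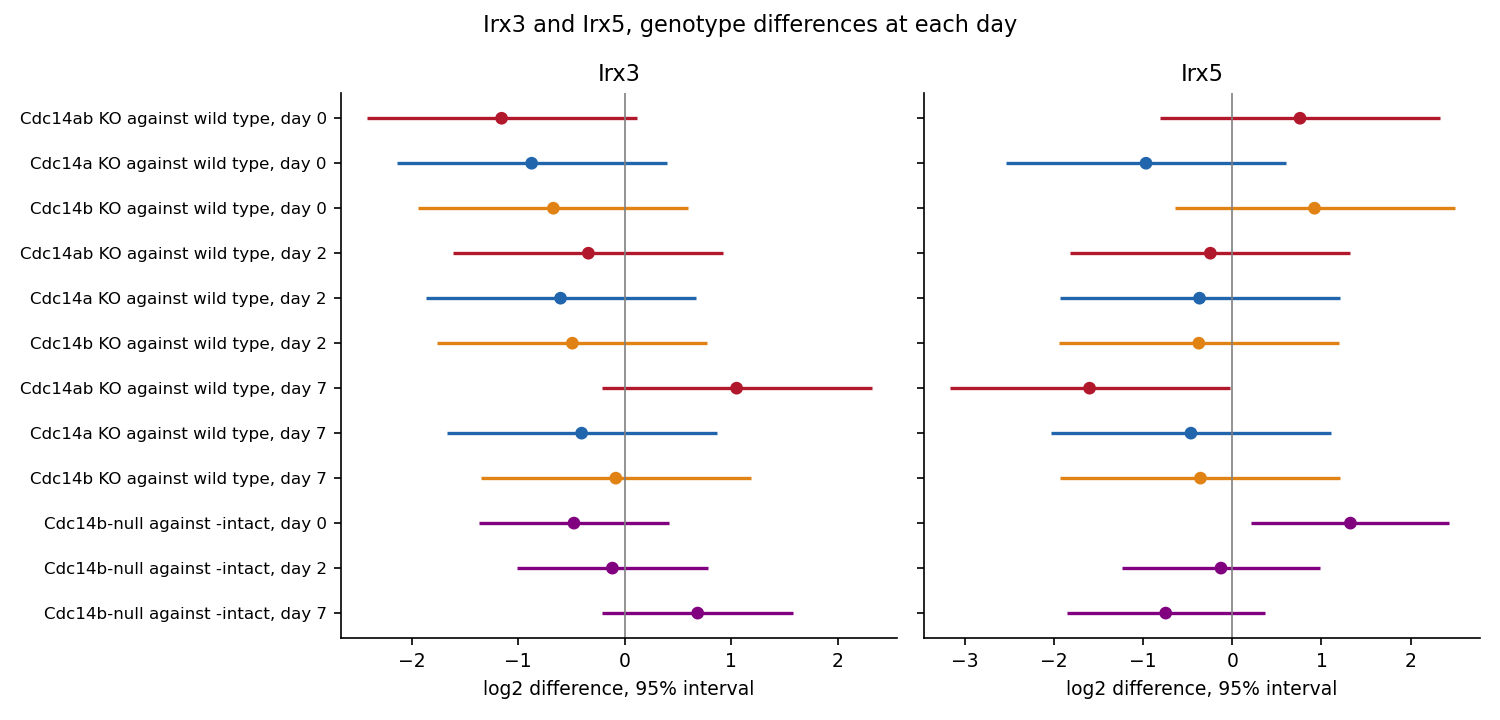
Log2 differences of Irx3 (left) and Irx5 (right) in the 12 genotype comparisons, with bars for the 95% intervals from limma and a line at 0. All 12 intervals of Irx3 include 0, and 2 intervals of Irx5 do not, in Cdc14ab KO against wild type at day 7 (−3.17 to −0.03) and in Cdc14b-null against Cdc14b-intact lines at day 0, before adjustment over all genes.

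The library of Cdc14ab KO clone 3 at day 7 stood apart beyond Irx3. In it, 76 genes, 0.47% of those tested, were at least 4 times as high as in each of the other 23 libraries. Only the 2 Cdc14ab KO day 0 libraries had any such genes among the rest, 36 in clone 1 and 1 in clone 3. Irx3 was 4.40 times the next highest library there, Irx4 3.45 times and Irx3os 2.82 times. The summed count of 3 trophectoderm markers (Cdx2, Gata3 and Krt7, none at 0) was 3656 in this library, against 519 to 808 in the other day 7 libraries. Most of the sum was Krt7, at 2910, with Gata3 at 712 and Cdx2 at 34.4, each the highest of day 7. Of the endoderm markers, Sox17 was also the highest of day 7 there, at 25.2, while Foxa2, at 81.4, was not. The summed count of neural progenitor markers was 115 there, the lowest of day 7. The part of these cell types in the Irx3 level was not tested.

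Next to Irx3 lies Irx3os, an RNA annotated on the opposite strand (chr8:91800415-91807539, plus strand) that overlaps Irx3 over 1653 bases. The libraries keep the sense orientation, per the labels. Whether the counting assigned reads of the pair by strand was not checked here. Irx3os had 0 and 0 normalized counts in Cdc14ab KO at day 0, 6.45 and 8.71 at day 2, and 22.6 and 94.8 at day 7. It had 1.04 and 5.39, 10.5 and 14.5, and 33.7 and 19.5 in Cdc14a KO at the same days, and 1.19 and 0, 3.99 and 11, and 31.4 and 32.4 in Cdc14b KO. In wild type it had 0 and 1.00 at day 0, 8.70 and 13.3 at day 2, and 26.7 and 24.8 at day 7. All day 7 libraries were above all day 0 libraries, an order that 5.42% of all genes showed. By limma Irx3os was higher at day 7 than at day 0 in all 4 genotypes, with a log2 difference of 4.24 (SE 0.76, adjusted p = 0.0025) in wild type, and 1.03% of all genes were called higher in all 4. Its correlation with Irx3 over 24 libraries was r = 0.924, and 0.911 without Cdc14ab KO clone 3 at day 7, on the log2 scale. This r mostly follows the steps between days.

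Of 17 genes past the filter next to the Irx3, Irx5 and Irx6 cluster, 2 rose in all 4 genotypes, Irx3os and Slc6a2, the noradrenaline transporter (chr8:92960079-93001667). Slc6a2 averaged 0.633 normalized counts at day 0, 4.68 at day 2 and 478 ± 488 at day 7 in Cdc14ab KO, and 94.2 ± 38.8, 98.6 ± 19.5 and 97.3 ± 53.1 at day 7 in Cdc14a KO, Cdc14b KO and wild type (SD, n = 2 lines). Crnde, a long RNA between Irx3 and Irx5 (chr8:92326033-92356120), had group means of 16.5 to 48.1. Next to the Irx1, Irx2 and Irx4 cluster, 0 of 16 genes past the filter rose in all 4 genotypes by limma. Leaving out 1 library ended the call of Irx3os in Cdc14a KO (clone 1 at day 0 and both clones at day 7) and that of Slc6a2 in Cdc14b KO (clone 3 at day 0) and in wild type (clone 1 at day 7).

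Irx5 (chr8:92357625-92376286, plus strand), the other measured gene of the Irx3 cluster, followed another course and was highest at day 2 in 5 of the 8 lines. In Cdc14ab KO it had 12.7 and 2.11 normalized counts in clones 1 and 3 at day 0, 30.1 and 21.8 at day 2, and 9.82 and 7.55 at day 7. In Cdc14a KO it had 1.04 and 0.898, 22.1 and 24.9, and 13 and 30.9 at the same days. In Cdc14b KO it had 5.94 and 6.67, 18.9 and 28.7, and 14.2 and 33.2. In wild type it had 6.40 and 1.00, 32.9 and 28.4, and 17.4 and 45.2. All 8 day 2 libraries, at 18.9 to 32.9, were above all 8 day 0 libraries, at 0.898 to 12.7, an order that 2.15% of all genes showed. From day 2 to day 7 the lines parted by clone number. All 4 clone 1 lines were lower at day 7 than at day 2, while clone 3 was higher in Cdc14a KO, Cdc14b KO and wild type and lower in Cdc14ab KO. In reads, Irx5 amounted to 32 over the 8 day 0 libraries, 220 at day 2 and 189 at day 7, so single libraries rest on few reads.

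At day 7 Irx5 averaged 8.69 ± 1.61 in Cdc14ab KO, 22.0 ± 12.7 in Cdc14a KO and 23.7 ± 13.5 in Cdc14b KO, against 31.3 ± 19.7 in wild type (SD, n = 2 lines each). Both Cdc14ab KO lines lay below the 6 other lines, at 13 to 45.2, as 4.28% of all genes did. The log2 difference of Cdc14ab KO from wild type was −1.60 (SE 0.75, 95% interval −3.17 to −0.03), with an unadjusted p of 0.046 and an adjusted p of 0.39 by limma, and 1.45% of all genes were called lower in that comparison. At day 0 the 4 Cdc14b-null lines averaged 6.84 ± 4.36 and the 4 Cdc14b-intact lines 2.34 ± 2.71 (SD, n = 4), a log2 difference of 1.33 with an adjusted p of 0.35 by limma. Without Cdc14ab KO clone 3 the difference was 1.86, with only clone 1 left in that genotype. The day 0 reads amounted to 23 in the Cdc14b-null and 9 in the Cdc14b-intact lines. The highest day 0 libraries were Cdc14ab KO clone 1, at 12.7, and Cdc14b KO clone 3, at 6.67. Both were rich in the transcript Gm42418, at 8.70% and 7.97% of reads.

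The summed neural progenitor markers moved with Irx5 at day 7, and so did the summed neuron markers. Of the 6 neural progenitor markers listed (Sox1, Pax6, Nes, Hes5, Fabp7 and Zic1), 5 were measured and none of these was at 0 at day 7. Their summed count at day 7 was 258 and 115 in Cdc14ab KO clones 1 and 3, 704 and 1916 in the Cdc14a KO lines, 205 and 843 in the Cdc14b KO lines, and 942 and 2762 in wild type. As with Irx5, clone 3 was above clone 1 in the last 3 genotypes and below it in Cdc14ab KO, and the lowest and the highest libraries were the same for both. At day 2 the sums were 253 to 752, while Irx5 was at 18.9 to 32.9. Hes5, at 11.8 to 1631, and Nes, at 63.8 to 684, had the widest ranges among these markers at day 7. Over the 8 day 7 libraries, the log2 correlation with Irx5 was r = 0.890 for the progenitor sum and 0.834 for the neuron sum. With Irx1 it was 0.716 and 0.771, so this likeness was not particular to Irx5 or to progenitor markers. The part of these cells in the Irx5 level was not tested.

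**Figure D3:**
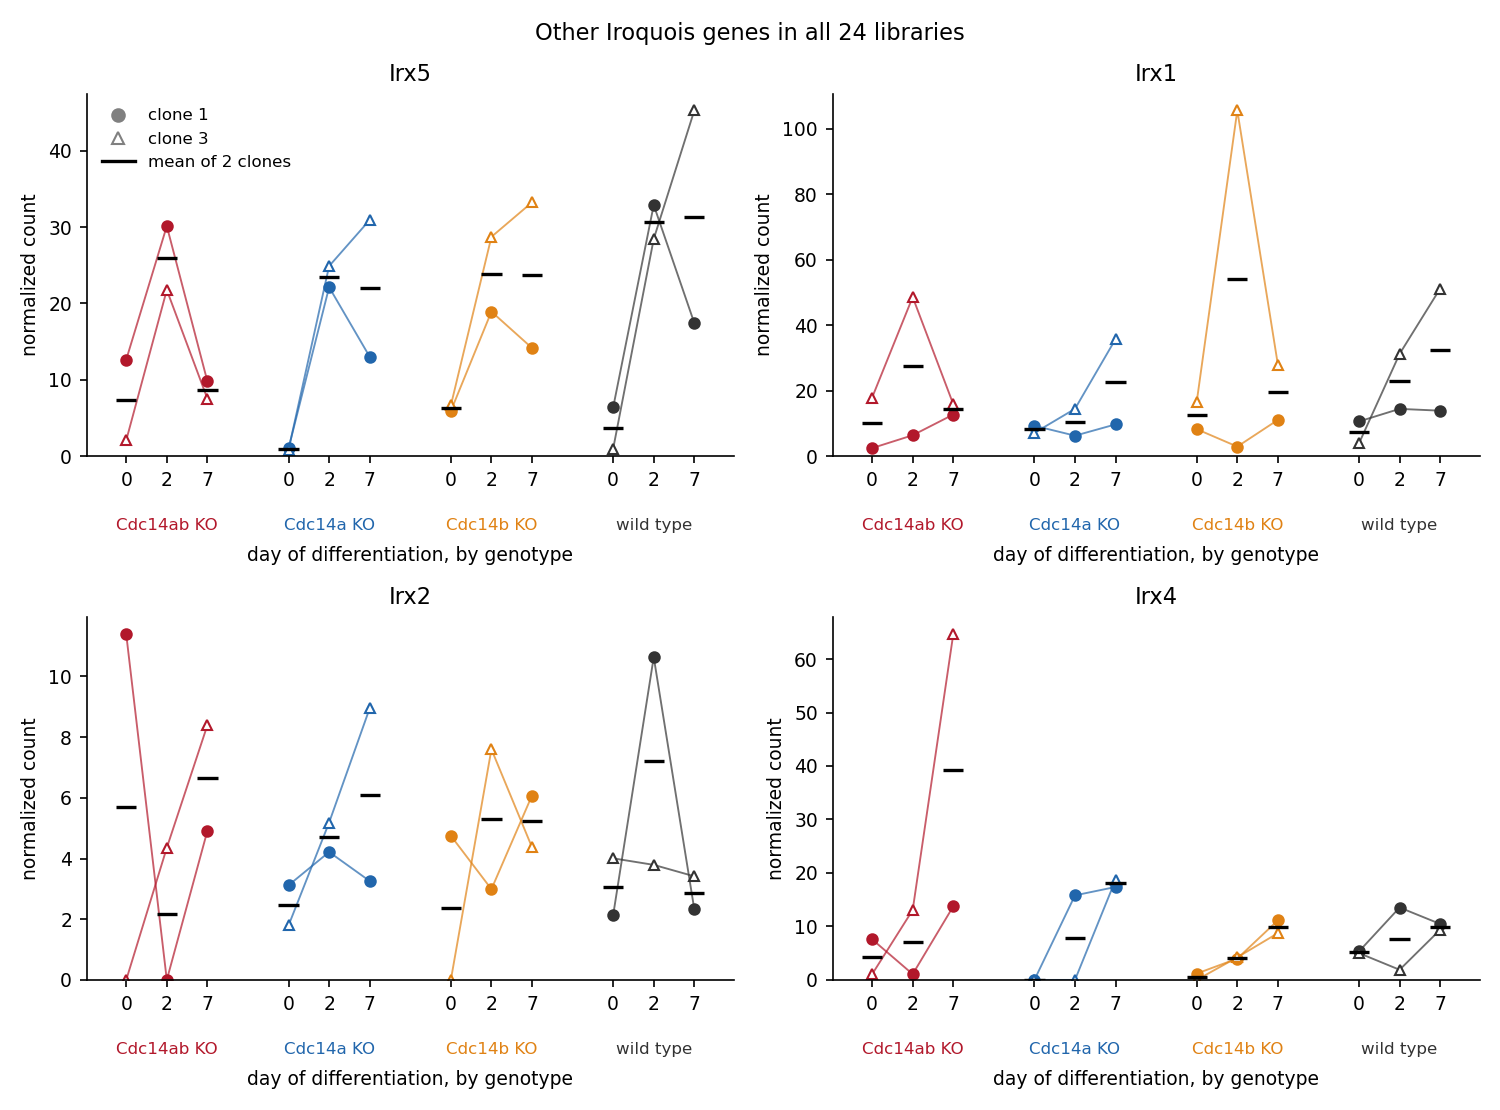
Irx5, Irx1, Irx2 and Irx4 in each of the 24 libraries, in normalized counts, by genotype and day, with circles for clone 1, triangles for clone 3, lines joining the days of a clone and bars at the mean of the 2 clones. Irx5 lies at 18.9 to 32.9 in all day 2 libraries, Irx1 reaches 106 in Cdc14b KO clone 3 at day 2, and Irx2 stays at or below 11.4.

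Irx1 (chr13:71957921-71963723, minus strand) was higher in clone 3 than in clone 1 of every genotype at days 2 and 7, and at day 0 in Cdc14ab KO and Cdc14b KO but not in Cdc14a KO and wild type. In Cdc14ab KO it had 2.53 and 17.9 normalized counts in clones 1 and 3 at day 0, 6.45 and 48.6 at day 2, and 12.8 and 15.9 at day 7. In Cdc14a KO it had 9.36 and 7.18, 6.32 and 14.5, and 9.78 and 35.8 at the same days. In Cdc14b KO it had 8.31 and 16.7, 2.99 and 106, and 11.1 and 28.0. In wild type it had 10.7 and 4.01, 14.5 and 31.3, and 14.0 and 51.2. Clone 3 was above clone 1 in 10 of 12 groups, which 7.9% of all genes matched or exceeded, against 7 of 12 groups for Irx3 and Irx2, 6 for Irx5 and 4 for Irx4.

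Summed markers of several other cell types moved with Irx1 at day 2, those of feeder fibroblasts and mesenchyme, endoderm and mesoderm. The endoderm and mesoderm sums each mostly followed 1 gene. The 8 fibroblast and mesenchyme markers, Col1a1, Col1a2, Col3a1, Postn, Thy1, Twist1, Prrx1 and Dcn, were all measured. At day 2 they summed to 162 and 897 in Cdc14ab KO clones 1 and 3, 250 and 600 in the Cdc14a KO lines, 109 and 1750 in the Cdc14b KO lines, and 324 and 890 in wild type, and 1 marker was at 0 in clone 1 of Cdc14a KO and of Cdc14b KO. The clone 3 lines were the higher ones in each genotype for both Irx1 and this sum, and Cdc14b KO held the lowest library of both in clone 1 and the highest in clone 3. Endoderm markers at day 2, of which Sox17 and Foxa2 were measured of 3 listed, summed to 85.3 to 130 in the clone 3 lines and 7.53 to 26.1 in the clone 1 lines, with 1 marker at 0 in Cdc14ab KO clone 1 and in both wild-type clones. Mesoderm markers, of which T and Tbx6 were measured of 3 listed, summed to 34.8 to 115 in clone 3 and 5.98 to 14.5 in clone 1, with 1 at 0 in Cdc14ab KO clone 3. Of these genes, Foxa2 was at 7.53 to 127 and T at 1.99 to 112 at day 2. Sox17, at 0 to 4.35, and Tbx6, at 0 to 3.99, were low in all day 2 libraries. At day 7 the fibroblast and mesenchyme sums were 270 to 3101, and clone 1 lines with sums of 837 to 3101 had Irx1 at 9.78 to 14.0. The part of these cells in the Irx1 level was not tested.

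Irx4 (chr13:73260479-73269608, plus strand) was near the limit of 3 reads before day 7. It amounted to 18 reads over the 8 libraries at day 0, 59 at day 2 and 171 at day 7. At day 7 it had 13.8 and 64.6 normalized counts in Cdc14ab KO clones 1 and 3, 17.4 and 18.7 in the Cdc14a KO lines, 11.1 and 8.74 in the Cdc14b KO lines, and 10.5 and 9.39 in wild type. At day 0 it was at 7.59 and 1.06 in Cdc14ab KO, 0 and 0 in the Cdc14a KO lines, 1.19 and 0 in the Cdc14b KO lines, and 5.34 and 5.01 in wild type. With 3 reads per library as the floor of Cdc14a KO at day 0, the wild-type mean of 5.17 was 1.78-fold higher. This value leaves out the error of the wild-type mean, which rests on 10 reads, and the adjusted p was 1 by limma. At day 2 values scattered between 0 and 15.8 within Cdc14a KO alone, and 3 of the 8 libraries held 3 reads or fewer. The 6 cardiac markers, Nkx2-5, Tbx5, Myl7, Tnnt2, Myh6 and Gata4, summed to 50.6 to 71.7 at day 7 and 43.1 to 170 at day 0. Up to 3 of them were at 0 in a day 0 library. In Cdc14ab KO clone 3 at day 7, Gata4 was at 18.5 and Tnnt2 at 16.8, each the highest of day 7. There Nkx2-5 was at 0, and Tbx5, Myl7 and Myh6, at 2.52, 15.1 and 12.6, were not the highest.

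Irx2 (chr13:72628820-72634198, plus strand) was low throughout, with 24 reads over the 8 libraries at day 0, 42 at day 2 and 46 at day 7. It had 11.4 and 0 normalized counts at day 0 in Cdc14ab KO, 3.12 and 1.80 in the Cdc14a KO lines, 4.75 and 0 in the Cdc14b KO lines and 2.13 and 4.01 in wild type. At day 7 it had 4.91 and 8.39, 3.26 and 8.95, 6.08 and 4.37, and 2.33 and 3.41 in the same order of genotypes. It stayed at or below 11.4 in every library, and 9 of 24 libraries held 3 reads or fewer. Its log2 differences from wild type had an SE of 1.09. Small or moderate differences between days or genotypes were therefore not detectable at this depth. Across the 12 comparisons the smallest adjusted p by limma was 0.82 for Irx2 and Irx1, 0.68 for Irx4, 0.36 for Irx3 and 0.35 for Irx5.

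**Figure D4:**
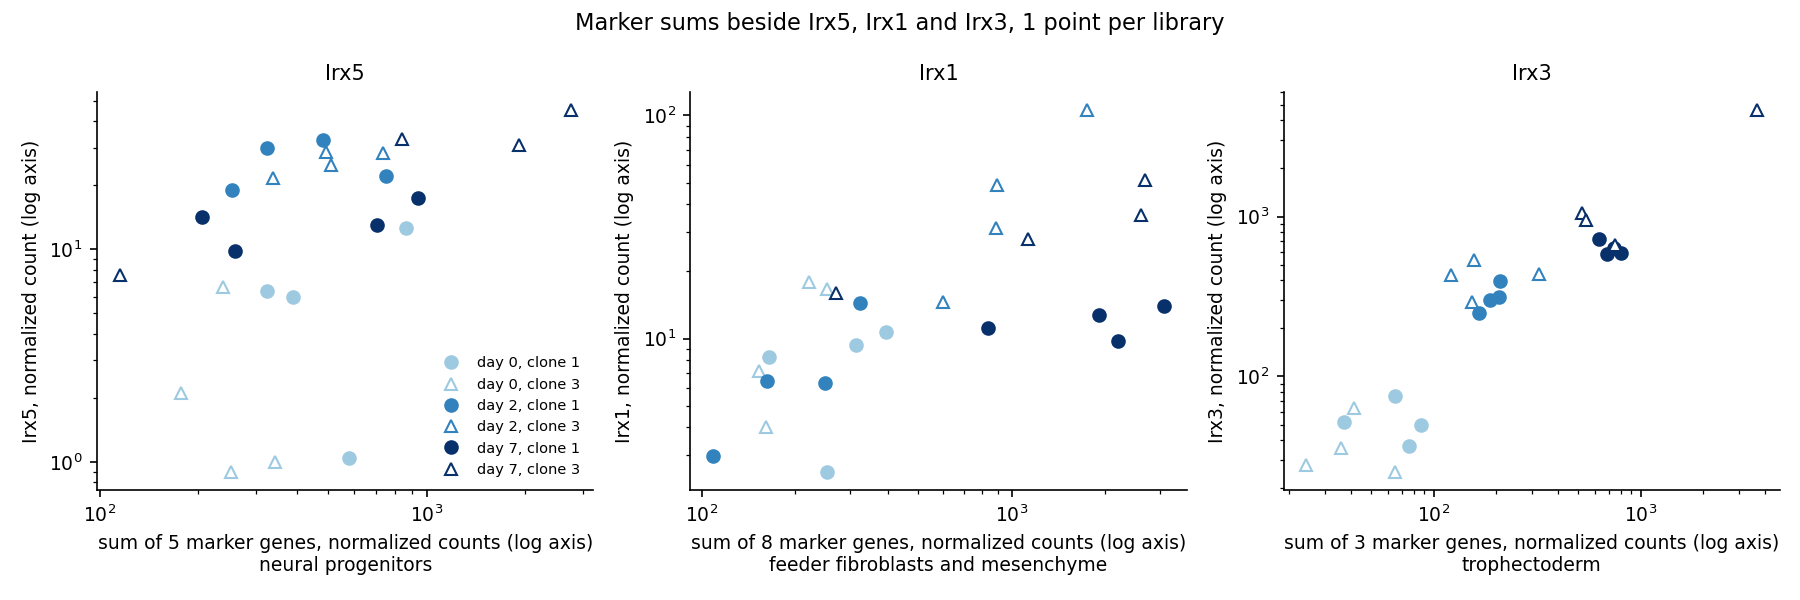
Irx5, Irx1 and Irx3 against the summed normalized counts of 5 neural progenitor, 8 fibroblast and mesenchyme, and 3 trophectoderm markers, 1 point per library on log axes, shaded by day, with circles for clone 1 and triangles for clone 3. At day 2 the clone 3 libraries are to the upper right of the clone 1 libraries of the same genotype for Irx1, and Cdc14ab KO clone 3 at day 7 stands alone at the upper right for Irx3.

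The 10 genes whose log2 levels were most like those of Irx3 over the 24 libraries were Mxd4 (r = 0.954), Rxra (0.946), Heg1 (0.941), Selenon (0.940), Smpd1 (0.937), Fads3 (0.928), Stra6 (0.928), Mir351 (0.927), Cdkn1c (0.924) and Mfhas1 (0.921). The r values describe a likeness that mostly follows the steps between days, and libraries of 1 line are not independent. Mxd4, a partner of MAX that opposes MYC, had 80.8 to 138 normalized counts at day 0, 209 to 547 at day 2 and 441 to 2019 at day 7. Rxra, a nuclear receptor that pairs with retinoic acid receptors, had 106 to 156, 231 to 352 and 346 to 1550 at the same days. Cdkn1c, an inhibitor of cyclin-dependent kinases, had 153 to 306, 331 to 886 and 940 to 9016. Without Cdc14ab KO clone 3 at day 7, 4 of these 10 genes remained among the 10 most like Irx3, and the day 7 maximum was 549 for Rxra and 2498 for Cdkn1c. The genes most like Irx1 were Twist2 (r = 0.845), Hoxc9 (0.830), Tnc (0.810), Gng11 (0.807) and Cd44 (0.806), and 3 of the 5 remained without that library. Twist2 is a transcription factor of mesenchyme and Tnc an extracellular matrix protein. Within the family, Irx3 had r = 0.677 with Irx5, its neighbour, and 0.721 with Irx4 of the other cluster, and 0.812 and 0.650 without that library.

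Genes with related roles were counted for day 7 against day 0 with limma, from lists put together with earlier results of these data known. Over all genes, 9.51% were called higher and 7.34% lower in Cdc14ab KO, 6.28% and 2.98% in the Cdc14a KO lines, 2.54% and 2.07% in the Cdc14b KO lines, and 5.46% and 1.89% in wild type, and 1.03% were called higher in all 4 genotypes. Of 12 TALE homeobox genes outside the family, Meis1 and Meis2 were called higher in all 4. Meis1, a cofactor of HOX proteins, averaged 45.8 ± 3.89 normalized counts at day 0, 109 ± 1.13 at day 2 and 196 ± 12.8 at day 7 in Cdc14ab KO, and 22.4 ± 7.58, 242 ± 49.4 and 1070 ± 489 in wild type (SD, n = 2 lines each). In single genotypes, 3 of the 12 rose in Cdc14ab KO, 4 in Cdc14a KO, 3 in Cdc14b KO and 4 in wild type, and Tgif1 fell in Cdc14a KO, a call lost without any 1 library. The median log2 difference of the 12 was 1.12, 1.26, 0.90 and 1.08 in that order of genotypes, against 0.0089 to 0.057 over all genes. The count in Cdc14ab KO was 0 without clone 1 at day 0 and 1 without either day 7 clone, and without clone 3 at day 7 it was 2 in Cdc14a KO, 1 in Cdc14b KO and 2 in wild type.

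Of 15 retinoic acid pathway genes, 4 were called higher at day 7 in all 4 genotypes, among them Rxra, Cyp26b1, which degrades retinoic acid, and Stra8, a gene induced by retinoic acid. In wild type the log2 difference was 1.86 (SE 0.41, adjusted p = 0.0099 by limma) for Rxra and 4.69 (SE 0.85, adjusted p = 0.0032) for Stra8. In single genotypes, 6 of the 15 rose in Cdc14ab KO, 5 in Cdc14a KO, 5 in Cdc14b KO and 6 in wild type. Of the 15, 1 fell in Cdc14ab KO, a call lost without clone 1 at day 0 or clone 3 at day 7, and 1 fell in wild type, a call lost without any 1 library. Leaving out any 1 library gave 5 to 7 higher in Cdc14ab KO, 2 to 4 in Cdc14a KO and 2 to 3 in Cdc14b KO. In wild type it gave 5 without clone 1 at day 7, 2 without clone 1 at day 0 and 1 without clone 3 at either day. Among the 15 listed genes called higher in all 4 genotypes, over every list named here, Stra8 alone was called with each library left out in turn.

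Neural genes were counted in each genotype, and the difference between these counts was not tested. The list sizes given here count only genes past the filter on low values. Of the genes listed, 12 of 20 dorsoventral, 7 of 18 forebrain and 11 of 15 midbrain and anterior hindbrain genes passed it. Of 21 neural progenitor genes, 0 rose and 4 fell in Cdc14ab KO, 6 rose and 1 fell in Cdc14a KO, 1 rose in Cdc14b KO and 8 rose in wild type. Of 19 neuron genes, 2 rose and 7 fell in Cdc14ab KO, 6 rose in Cdc14a KO, 2 rose and 1 fell in Cdc14b KO and 7 rose in wild type. Without clone 3 at day 7, the genes that rose were 0 neural progenitor and 1 neuron genes in Cdc14a KO, and 1 and 2 in wild type. Without clone 1 at day 0, 1 neural progenitor and 3 neuron genes rose in Cdc14a KO and 4 and 5 in wild type, and without clone 3 at day 0, 1 and 4 did in Cdc14a KO and 5 and 7 in wild type. In Cdc14ab KO, 0 neural progenitor and 2 neuron genes fell without clone 1 at day 0, 7 and 7 without clone 3 at day 0, 3 and 2 without clone 1 at day 7, and 1 and 2 without clone 3 at day 7. By limma, none of 12 dorsoventral genes, 7 forebrain genes, 11 midbrain and anterior hindbrain genes, 21 neural progenitor genes, 14 Wnt pathway genes or 10 BMP pathway genes was called higher at day 7 in all 4, where the 1.03% of all genes would give less than 1 in a list of this size. Of 13 Hedgehog pathway genes, Boc, a Hedgehog coreceptor, was, and of 19 neuron genes Dcx and Onecut2 were. Of 20 fibroblast genes, 12 cardiac genes and 16 pluripotency genes none was, of 8 mesoderm genes Foxc1 was, and of 5 endoderm genes Col4a1 was. Of 10 trophectoderm genes, Gata3 and Krt7 were called higher in all 4. In single genotypes, 7 trophectoderm genes rose in Cdc14ab KO, 3 in Cdc14a KO, 3 in Cdc14b KO and 4 in wild type, with 3 in Cdc14ab KO without clone 3 at day 7 and 1 or 2 in wild type without any 1 library.

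Between genotypes at day 7, 11 of 19 neuron genes and 6 of 21 neural progenitor genes were called lower in Cdc14ab KO than in wild type by limma, at a background of 1.45%. Examples are Map2, a neuronal microtubule protein (log2 difference −4.17, SE 0.77, adjusted p = 0.016), and Hes5, a Notch target of neural progenitors (−5.01, SE 0.92, adjusted p = 0.016). Both counts were 0 without clone 3 of Cdc14ab KO and 0 without clone 3 of wild type. In the same libraries Irx3 had 641 and 4637 normalized counts in Cdc14ab KO, against 724 and 954 in wild type, so the lines did not separate for it.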

How the data were processed

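Total RNA of 24 libraries was sequenced from 3′ ends (QuantSeq 3′ FWD, which keeps the sense orientation), per the labels. The deposited signal is read counts per gene that the authors divided by 1 size factor per library. The submitters' processing notes name HTSeq 0.6.1, TopHat2 2.0.10 with Bowtie 1.0.0, FastQC 0.11.7, SAMtools 0.1.19, DESeq2 and GRCm38. The gene annotation used for counting is not given in the sources used here. Deposited values were whole multiples of 1 read in 100% of cases (tolerance 0.001), which gave back the reads.

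Members and gene lists were chosen with earlier results of these data known. The 16158 genes that reached 10 normalized counts in 2 or more libraries entered limma 3.58.1 in R 4.3.3 (trend and robust), on log2(normalized count + 1), with a mean per genotype and day (12 groups, 12 residual degrees of freedom) and Benjamini-Hochberg adjustment over all genes at 0.05. This fit treated the libraries of a line at different days as independent. Another fit took the cell line as a random effect, with an estimated correlation within lines of 0.0336. Recovered reads were also tested with edgeR 4.0.16 and DESeq2 1.42.0. The scripts were tested on simulated data. Other pseudocounts (0.25 and 5), a filter of 50, TMM scaling, fits of only the groups compared and a block for the clone number were tried. So were leaving out each library and leaving out 3 libraries rich in Gm42418 (over 7% of reads). These 3 were Cdc14ab KO clone 1 and Cdc14b KO clone 3 at day 0 and Cdc14a KO clone 1 at day 2. Named genes were the family in every library, the 10 genes most correlated with Irx3 and the 5 most correlated with each other member averaging at least 20 normalized counts, and up to 4 genes of a list with the smallest adjusted p. Irx3os, Slc6a2, Crnde and the genes called in all 4 genotypes were named after their values were seen. The values of 1 listed gene are not reported here. Positions and homeobox stretches come from GRCm38 and GENCODE M21, in which 99.6% of the symbols were found.

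Intervals cover the spread between lines, with the counting error in it. The floor of 3 reads covers counting error in libraries with 0 reads only. Neither covers PCR copies, which cannot be told apart. With 2 lines a group, an exact permutation test could not go below p = 0.33, so the p-values rest on the spread shared over all groups.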

Additional observations from a re-analysis of the deposited data

Results flagged for a closer look

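Irx3 in Cdc14ab KO clone 3 at day 7, at 4637 normalized counts, was far from the other 3 Cdc14b-null lines of that day, at 584 to 1054. Irx4 was far from the rest in the same library, at 64.6 against 8.74 to 13.8. Irx4 in Cdc14ab KO clone 1 at day 0 was at 7.59, and the other 3 Cdc14b-null lines were at 0 to 1.19. Irx5 in wild-type clone 1 at day 0 was at 6.40, and the other 3 Cdc14b-intact lines were at 0.898 to 1.04. Irx2 in Cdc14a KO clone 3 at day 7 was at 8.95, and the other 3 Cdc14b-intact lines were at 2.33 to 3.41. In all, 30 groups of 4 lines were examined in this way, on normalized counts and not on log2 values. Chance would flag about 1 in 20 of such groups if the values were normally distributed. Counts can be skewed, so the rate of chance flags here is not known, and no excess of flags is read from them. The last 3 of these values rest on few reads.

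For Irx4, both Cdc14a KO lines had 0 reads at day 0, below both wild-type lines, and lay above them at day 7 (log2 difference 0.80). The fitted difference was −2.63 at day 0, and 3.43 higher at day 7 than at day 0, but both of these values are set by the pseudocount and are neither sizes nor bounds. With 3 reads per library as the floor of Cdc14a KO, the day 0 mean of wild type was 1.78-fold higher, leaving out the error of the wild-type mean. The difference between the days was not tested.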

How the results depend on the processing

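Irx3 differences between genotypes kept their sign under every alternative other than leaving out 1 library. Leaving out 1 library moved the log2 difference of Irx3 in Cdc14ab KO against wild type at day 7 between -0.375 and 2.48, in Cdc14b KO against wild type at day 7 between -0.507 and 0.342, with 0.115 without clone 3 of wild type, and in Cdc14b-null against Cdc14b-intact lines between -0.311 and 0.0815 at day 2, with 0.0179 without clone 1 of Cdc14ab KO, and between -0.0272 and 1.40 at day 7; the cause was not tested. The number of members called stayed at 0 under the other alternatives and was 0 to 1 leaving out 1 library in Cdc14ab KO against wild type at day 7 and in Cdc14b-null against Cdc14b-intact lines at days 0 and 7.

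Counts of all genes called moved more. In Cdc14ab KO against wild type at day 7, main count 247, they were 654 by DESeq2, 0 with only the groups compared, 114 without the libraries rich in Gm42418, 163 at a filter of 50 and 0 to 516 leaving out 1 library. In Cdc14b-null against Cdc14b-intact lines at day 7, main count 606, they were 1423, 327 with only the groups compared, and 5 to 773. TMM scaling moved the median of all genes by at most 0.0352. The same clone number names different lines in different genotypes. Deviations of lines from their group means, matched by clone number, were still mostly positively correlated between genotypes. The correlations were 0.119 to 0.512 at day 0, -0.134 to 0.628 at day 2 and 0.231 to 0.541 at day 7. What lines of the same number share was not tested. With the clone number as a replicate block, 0 members were called, the Irx3 difference in Cdc14ab KO against wild type at day 7 stayed at 1.05, and 546 genes were called there and 1350 in the Cdc14b-null comparison. Crossing the numbers at day 2 in Cdc14ab KO gave 0 calls. Irx2, Irx4 and Irx5 rest on few reads per library, which limits what could be detected for them.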
